A study of Mus musculus with 12 samples.

Results

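The genes described here are p53 target genes in WT and *Terc*-/- (KO) mouse ES cells and their differentiated progeny. Of the 10 genes chosen, *Trp53*, *Mdm2*, *Cdkn1a*, *Ccng1*, *Btg2*, *Trp53inp1*, *Ddit4*, *Bax*, *Phlda3* and *Zmat3*, every probe set whose annotation gives 1 symbol was read. This left 15 probe sets of 8 genes among 45037 probe sets tested, which name 18193 genes in all. *Trp53* and *Bax* were not analysed here. A probe set is a group of short array probes for 1 transcript, and its intensity is a relative level that cannot be set against that of another probe set.

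The data are 12 Affymetrix mouse arrays, 2 for each of 6 groups, and ask how cells without telomerase RNA and with short telomeres differ from WT cells. The KO cells carry a deletion of *Terc*, the RNA template of telomerase, and at day 0 are labelled generation G3/4. The samples are labelled C57BL/6. At day 0 the groups are undifferentiated ES cells, lines F35 and A49 at passage 11 for KO and lines N12 and N33 at passage 12 for WT, which the study grew on feeder cells. The day 8 and day 15 groups are KO and WT cells differentiated as embryoid bodies, first in hanging drops without LIF and then on plates. The study gives F35 as G3 and A49 as G4, yet describes its array cells as G4, in duplicates, also after differentiation. The only G4 line that it names is A49, and its WT line is N33. No source used here states the lines of the later arrays outright. Nor is it said whether 2 arrays of a group are separate lines or cultures, so that the p-values measure only the spread between these samples. No group is labelled as treated with a DNA-damaging agent. The study states, however, that the feeder fibroblasts of its ES cells had been treated with mitomycin C, such an agent. Whether RNA of these feeders adds to the day 0 values of the p53 targets was not tested.

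p53 is a transcription factor that is kept low by the ubiquitin ligase Mdm2 and becomes stable when DNA is damaged or a telomere is no longer capped. It binds a pair of short, like motifs, here called decamers, in its target genes and turns on genes of cell cycle arrest, apoptosis, metabolism and its own restraint. *Cdkn1a* encodes p21, the inhibitor of cyclin-dependent kinases that carries much of the arrest. Mouse ES cells are known to hold p53 at a high level and to cycle rapidly.

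For 6 of the 8 genes RefSeq promoter windows on build GRCm38.p6 were at hand, 7 windows in all since *Cdkn1a* has a pair of start sites, and the 250 bases before each start were searched for the p53 decamer, the 10-letter consensus of 1 such motif, on both strands. The decamer was found in 3 of these 7 windows, of *Mdm2*, *Ccng1* and the upstream *Cdkn1a* start, against 7.13% of 32851 windows of the same length. Decamers no more than 13 bases apart were found in 1 of the 7, *Cdkn1a*, against 0.0639% of all windows. A pair of decamers back to back, with at most 1 of 20 letters off, a search added after the first had been seen, was found in 2 of the 7, against 0.0578% of all. No match was found in the windows of *Btg2*, *Ddit4*, *Phlda3* and the downstream *Cdkn1a* start, which says only that these letters are not there. The *Cdkn1a* window is shown whole, because this gene had the widest relative difference at day 0, and the matches of the other genes are shown alone.
Cdkn1a, chr17:29090729-29090978, plus strand, with the back-to-back pair in capitals: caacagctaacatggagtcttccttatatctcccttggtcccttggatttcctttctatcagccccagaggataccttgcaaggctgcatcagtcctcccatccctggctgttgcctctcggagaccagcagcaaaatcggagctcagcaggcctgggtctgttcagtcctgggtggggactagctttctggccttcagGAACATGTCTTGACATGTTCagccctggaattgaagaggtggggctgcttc
Ccng1, chr11:40755462-40755481, minus strand, back-to-back pair: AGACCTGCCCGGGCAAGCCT
Mdm2, chr10:117710935-117710944, minus strand, decamer: GAACTTGCCT
The *Cdkn1a* pair lies 51 to 32 bases before the upstream start and 2822 bases before the downstream one. The *Ccng1* pair lies 195 to 176 bases before its start and the *Mdm2* decamer 186 to 177 bases before its start. A match of letters is a description of the window and no measure of binding.

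Most of these transcripts were among the brighter ones on every array. Of the 15 probe sets 13 lay at or above percentile 74.2 of their array in all 12 arrays, a level set by *Mdm2* 1427718_a_at in 1 WT array of day 15. The remaining 2, *Mdm2* 1457929_at and *Trp53inp1* 1416927_at, were dim, at percentiles 8.6 to 45.6 and 41.3 to 54.0 of their arrays. The day 0 arrays have medians of 114 to 117 and the later arrays of 50.6 to 53.1. That these sets were scaled apart is read from their values. No fold between day 0 and the later days is therefore given, and days 8 and 15 are compared with each other. The average over the 3 days and the comparison of day 15 with day 0 use KO-WT differences within days from both sets. The fit also shares its variances over all 12 arrays.

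The arrays of the later days also differ in the cells they hold. The summed intensity of 10 pluripotency markers was 66412 to 67748 in KO and 63889 to 64285 in WT cells at day 0. It was 22017 to 23759 in KO and 13865 to 16142 in WT cells at day 8, and 18386 to 19614 in KO and 2578 to 7805 in WT cells at day 15. At day 15, 9 of these 10 genes were higher in KO cells by limma's moderated test (adjusted p under 0.05, used for all marker counts here). Over all probe sets 6.45% were higher and 6.45% lower. The sum of 9 fibroblast markers was 10228 to 15076 in KO and 53727 to 71357 in WT cells at day 15, where 5 of the 9 were lower in KO cells. At day 8 the fibroblast sum was 3295 to 3421 in KO cells, and 5915 in the first and 25169 in the second WT array. At day 0 it was 5752 to 9065 in KO and 3073 to 5392 in WT cells, which were grown on feeders. Of 8 endoderm and 8 blood markers, 5 each were lower in KO cells at day 15. Of 7 neural markers 4 were higher and of 8 muscle markers 1 was higher by this test, while 6 and 5 had positive differences. The part of these cell types in the results below was not tested, and in such mixed cultures fewer cells of a type and less RNA per cell cannot be told apart.

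**Figure D1:**
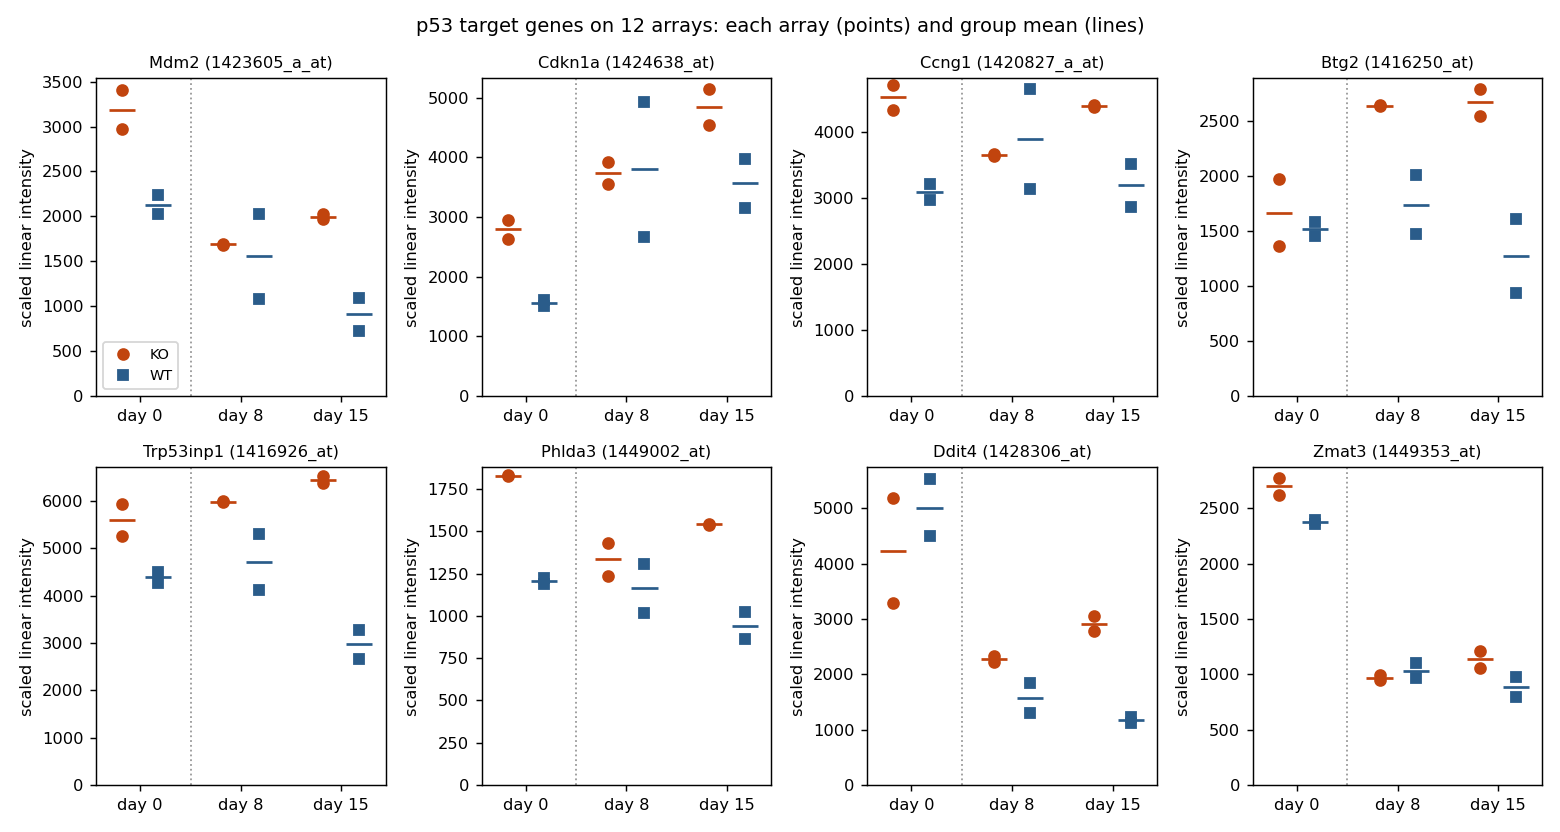
Scaled linear intensity (y axes, from 0) of the brightest probe set of each of 8 p53 target genes at days 0, 8 and 15 (x axes). Points are single arrays, KO (circles) left of WT (squares), and lines are means of 2 arrays. The dotted line parts day 0 from the later arrays, which by their values were scaled apart. At day 15 both KO points lie above both WT points in all 8 genes.

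At day 15 p53 target genes were higher in KO cells. All 15 differences were positive, with a median of 0.72 on the log2 scale, against 0.04 over all probe sets tested. With limma's moderated test and Benjamini-Hochberg adjustment over all 45037 probe sets, 8 of the 15, in 6 of the 8 genes, were higher and 0 lower, while 6.45% of all probe sets were higher and 6.45% lower. Calls were commoner among brighter probe sets. In a fit on the 22518 above the median intensity, 2681 were higher and 2300 lower, and 7 of the 13 members there were higher. Both KO arrays lay above both WT arrays in 14 of the 15 probe sets, against 30.8% of all, and below them in 0, against 23.4% of all. *Cdkn1a* 1421679_a_at was the exception. Of these results, 3 calls, of *Trp53inp1*, *Ddit4* and *Ccng1* 1450016_at, held when any 1 array of day 15 was left out. The other 5 were lost without the first WT array and without the first KO array, which left 3 calls each. Without the second KO array 5 calls were left, and without the second WT array 9 were made.

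*Mdm2*, the ligase that marks p53 for destruction and is itself a p53 target, was read by 3 probe sets. Probe set 1423605_a_at gave 1970 and 2025 in KO cells at day 15, against 729 and 1097 in WT cells. The KO mean was 2.19 times that of WT, and the log2 difference was 1.16 ± 0.26 (SE, limma adjusted p = 0.0172). Probe set 1427718_a_at gave 307 and 438 in KO cells, against 188 and 255 in WT cells. These groups did not overlap either, but the difference of 0.74 ± 0.26 (SE) did not pass (limma adjusted p = 0.0977). The dim probe set 1457929_at gave 41.9 and 40.2 in KO cells and 25.1 and 27.0 in WT cells, all under the median of their arrays, with a difference of 0.66 ± 0.17 (SE, limma adjusted p = 0.031).

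*Cdkn1a*, the p21 gene of cell cycle arrest, did not pass on either of its probe sets at day 15. Its probe set 1424638_at gave 4549 and 5139 in KO cells at day 15, against 3144 and 3979 in WT cells. The groups did not overlap, but lay close, and the difference was 0.45 ± 0.23 (SE, limma adjusted p = 0.258). Probe set 1421679_a_at, which is drawn from the same gene, gave 1933 and 2361 in KO cells, against 1406 and 1982 in WT cells. These values overlapped, with the lower KO array under the higher WT array, and the difference was 0.36 ± 0.37 (SE, limma adjusted p = 0.622).

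*Ccng1* encodes cyclin G1, which brings the phosphatase PP2A to Mdm2. Probe set 1450016_at gave 2297 and 2195 in KO cells at day 15, against 634 and 1231 in WT cells. With 2.41 times the WT mean in KO cells, it had the widest log2 difference of the 15 probe sets, 1.35 ± 0.23 (SE, limma adjusted p = 0.00471). The other 2 probe sets of the gene had smaller differences. Probe set 1420827_a_at gave 4382 and 4412 in KO cells and 2873 and 3523 in WT cells (log2 difference 0.47 ± 0.16, SE, limma adjusted p = 0.0768). Probe set 1450017_at gave 459 and 529 in KO cells and 257 and 364 in WT cells (log2 difference 0.69 ± 0.23, SE, limma adjusted p = 0.0761). All 3 had both KO arrays above both WT arrays, and 1 of the 3 passed.

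*Btg2*, an antiproliferative gene whose product binds the mRNA deadenylase complex, was higher on both of its probe sets. Probe set 1416250_at gave 2546 and 2792 in KO cells at day 15, against 938 and 1605 in WT cells (log2 difference 1.12 ± 0.25, SE, limma adjusted p = 0.0162). Probe set 1448272_at gave 1352 and 1254 in KO cells, against 522 and 769 in WT cells (log2 difference 1.04 ± 0.20, SE, limma adjusted p = 0.00614). The WT arrays differed from each other more than the KO arrays on both.

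*Trp53inp1* encodes a stress-induced nuclear protein that binds p53 and its kinase Hipk2. Its bright probe set 1416926_at gave 6375 and 6519 in KO cells at day 15, against 2651 and 3283 in WT cells. It had the smallest p of the 15, with a difference of 1.13 ± 0.13 (SE, limma adjusted p = 0.000414). Its dim probe set 1416927_at gave 48.0 and 55.4 in KO cells and 47.9 and 38.7 in WT cells, near the medians of the arrays, and did not pass (0.26 ± 0.14, SE, limma adjusted p = 0.283).

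*Phlda3* and *Ddit4* encode brakes on growth signaling, Phlda3 on the kinase Akt and Ddit4, also called Redd1, on mTORC1. *Phlda3* gave 1545 and 1540 in KO cells at day 15, against 864 and 1021 in WT cells (log2 difference 0.72 ± 0.13, SE, limma adjusted p = 0.00561). *Ddit4* gave 3044 and 2773 in KO cells, against 1234 and 1127 in WT cells (log2 difference 1.30 ± 0.21, SE, limma adjusted p = 0.00357). *Ddit4* had the highest ratio of linear means, 2.46, and its WT arrays lay close together. *Ddit4* is also known to respond to low oxygen and to glucocorticoids, through other factors. *Zmat3*, an RNA-binding protein that regulates splicing, gave 1060 and 1211 in KO cells and 795 and 971 in WT cells. Its arrays did not overlap and its difference of 0.37 ± 0.12 (SE) did not pass (limma adjusted p = 0.0715).

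The fold rule of the study is a ratio of group means of at least 1.8. At day 15 it found 2.29% of all 45037 probe sets higher in KO cells, 1033 against 1796 lower. Of the 15 probe sets 6 were higher and 0 lower. These were both probe sets of *Btg2* and 1 each of *Trp53inp1*, *Mdm2*, *Ddit4* and *Ccng1*. The same 6 passed at 2-fold and with 32 added to both means, against 1.52% and 1.15% of all higher. At days 0 and 8 the rule found 0 of the 15, against 0.522% and 0.659% of all higher. In all, 275 probe sets were lower at day 0 and 732 at day 8.

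**Figure D2:**
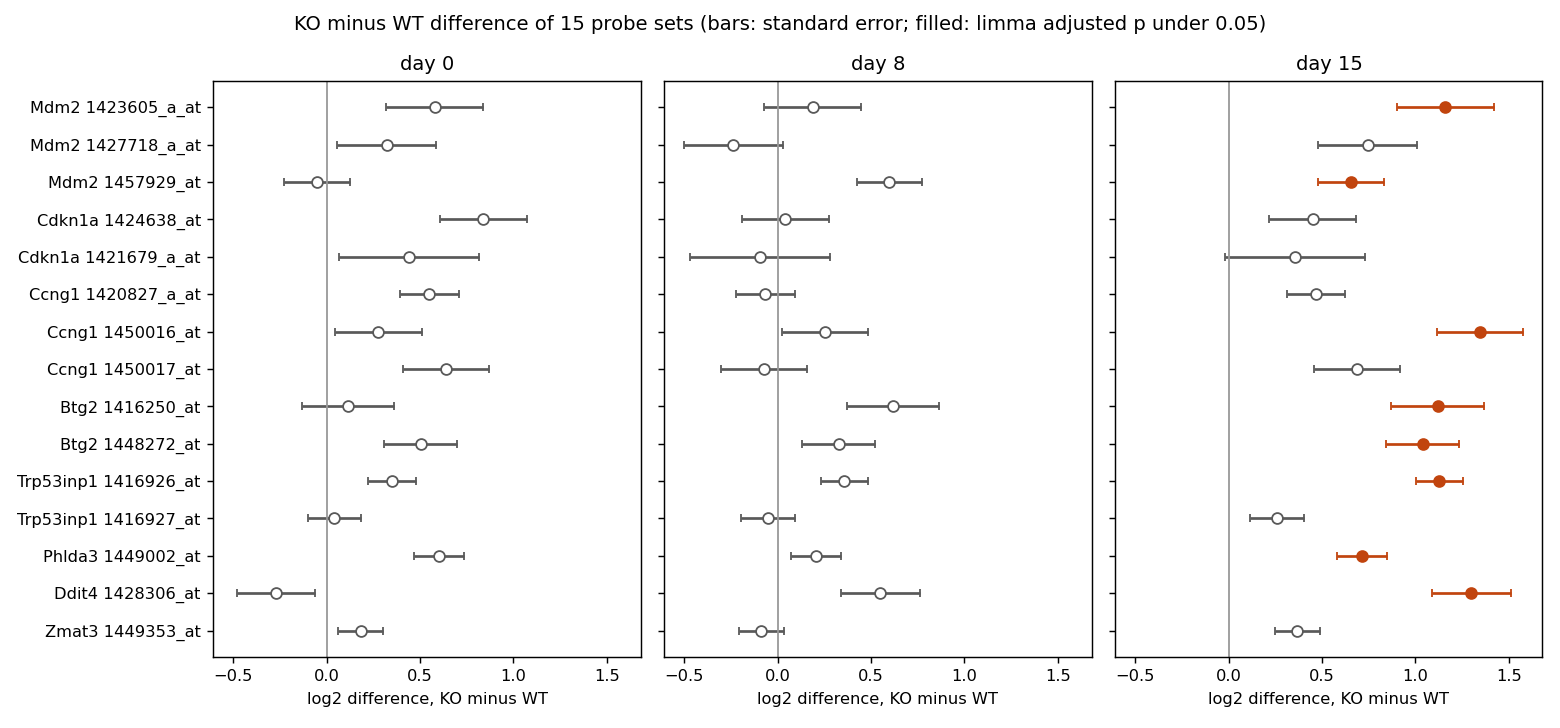
Log2 difference, KO minus WT, of the 15 probe sets (rows) at days 0, 8 and 15 (panels, x axes), with bars for 1 standard error and filled points for a limma adjusted p under 0.05. No point is filled at days 0 and 8, and 8 are filled at day 15, where all 15 lie right of 0.

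In ES cells at day 0 none of the 15 passed with limma, against 0.0222% of all probe sets higher and 0.0266% lower. At an unadjusted p under 0.05, limma counted 6 of the 15, all higher in KO cells, against 3870 of all 45037 both ways. An unpaired 2-group t-test counted 8, also all higher, against 3769 of all. The study names a t-test in general, but not for its arrays. The differences were positive in 13 of 15, with a median of 0.35, against 0.04 over all probe sets. Both KO lines lay above both WT lines in 11 of the 15 and below in 0, against 29.5% and 18.4% of all.

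The widest of these differences was that of *Cdkn1a*. Probe set 1424638_at gave 2632 in F35 and 2957 in A49, against 1507 in N12 and 1612 in N33. The KO mean was 1.79 times the WT mean, just under the fold rule, and the log2 difference was 0.84 ± 0.23 (SE, limma adjusted p = 0.256). On 1421679_a_at the KO lines gave 1977 in F35 and 1687 in A49, against 1345 in N12 and 1343 in N33 (log2 difference 0.44 ± 0.37, SE, limma adjusted p = 0.821). All 4 readings of the KO lines thus stood above those of the WT lines on the same probe set.

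*Phlda3* came nearest to the threshold at day 0. It gave 1832 in F35 and 1827 in A49, against 1223 in N12 and 1188 in N33 (log2 difference 0.60 ± 0.13, SE, limma adjusted p = 0.138). *Mdm2* 1423605_a_at gave 3401 in F35 and 2971 in A49, against 2241 in N12 and 2023 in N33 (log2 difference 0.58 ± 0.26, SE, limma adjusted p = 0.582). *Ccng1* 1450017_at gave 982 in F35 and 1121 in A49, against 661 in N12 and 685 in N33 (log2 difference 0.64 ± 0.23, SE, limma adjusted p = 0.423). In each of these the KO lines did not overlap the WT lines and the difference did not pass.

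The 2 KO lines, F35 of generation G3 and A49 of G4 by the study, did not agree on every gene. *Ddit4* gave 5186 in F35 and 3283 in A49, against 4490 in N12 and 5522 in N33, so that F35 lay within the WT values and A49 below them. Its difference of -0.27 ± 0.21 (SE, limma adjusted p = 0.798) came to 0.06 without A49. *Btg2* 1416250_at gave 1968 in F35 and 1365 in A49, on either side of the WT lines at 1451 and 1581, while 1448272_at gave 1235 and 1203 in the KO lines, against 848 and 871 in the WT lines. *Trp53inp1* 1416926_at gave 5926 in F35 and 5268 in A49, against 4267 in N12 and 4504 in N33. *Zmat3* gave 2773 and 2624 in the KO lines and 2356 and 2395 in the WT lines, a ratio of 1.14.

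At day 8 none of the 15 passed with limma, against 0.513% of all probe sets higher and 0.615% lower. At an unadjusted p under 0.05, limma counted 4, all higher in KO cells, against 6254 of all 45037. The 2-group test counted 0, against 3864 of all. The differences were positive in 9 of the 15 and their median was 0.19, against 0.03 over all probe sets. Both KO arrays lay above both WT arrays in 6 probe sets, against 25.7% of all, and below in 0, against 17.8% of all.

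The WT arrays of day 8 lay far apart on these genes, and the KO arrays close together. *Cdkn1a* 1424638_at gave 3549 and 3930 in KO cells at day 8, against 2674 and 4924 in WT cells, so that both KO arrays fell between the WT arrays. *Mdm2* 1423605_a_at gave 1692 and 1685 in KO cells, against 1085 and 2026 in WT cells. *Ccng1* 1420827_a_at gave 3645 and 3666 in KO cells, against 3142 and 4654 in WT cells. The same held for *Cdkn1a* 1421679_a_at, with 1740 and 1840 in KO cells, against 1163 and 3138 in WT cells. Without the first WT array this probe set was the only one of the 15 that passed at day 8, lower in KO cells, with a log2 difference of -0.81.

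The second WT array was above the first in 13 of the 15 probe sets at day 8, by a median of 0.45 on the log2 scale, against 48.6% of all probe sets. It was again the higher in 13 of 15 at day 15, by a median of 0.34, against 47.7% of all. In KO cells the second array was the higher in 10 of 15 at each of these days, with medians of 0.05 at day 8 and 0.04 at day 15. At day 8 the second WT array also held the higher fibroblast sum, and at day 15 the higher pluripotency sum, 7805 against 2578 in the first. The part of these in the spread was not tested.

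The 6 probe sets whose KO arrays stood above the WT arrays at day 8 were both of *Btg2*, that of *Ddit4*, *Trp53inp1* 1416926_at, *Ccng1* 1450016_at and the dim *Mdm2* 1457929_at. *Btg2* 1416250_at gave 2641 and 2637 in KO cells, against 1470 and 2011 in WT cells. *Ddit4* gave 2220 and 2324 in KO cells, against 1846 and 1305 in WT cells. *Trp53inp1* 1416926_at gave 5996 and 5970 in KO cells, against 4107 and 5309 in WT cells. *Phlda3* overlapped, with 1235 and 1433 in KO cells and 1017 and 1307 in WT cells, and so did *Zmat3*, with 952 and 989 in KO cells and 964 and 1101 in WT cells.

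Averaged over the 3 days, 9 of the 15 probe sets were higher in KO cells and 0 lower, against 4.67% and 5.01% of all probe sets. *Trp53inp1* 1416926_at (0.61 ± 0.07, SE, limma adjusted p = 0.000907), *Phlda3* (0.51 ± 0.08, SE, limma adjusted p = 0.00284) and *Btg2* 1448272_at (0.62 ± 0.11, SE, limma adjusted p = 0.00705) had the smallest p. These 3 passed also without the first KO array of day 15, when 3 calls in all were left. *Cdkn1a* 1424638_at missed the threshold with 0.44 ± 0.13 (SE, limma adjusted p = 0.0663). Both KO arrays were above both WT arrays on each of the 3 days in 3 probe sets, *Trp53inp1* 1416926_at, *Btg2* 1448272_at and *Ccng1* 1450016_at, against 3.79% of all.

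Between days 8 and 15, 4 of the 15 probe sets fell in WT cells, in *Trp53inp1*, *Ccng1* and *Mdm2*, and none passed in KO cells. In WT cells all 15 log2 changes were negative, with a median of -0.41, against 0.0039 over all probe sets, and the 4 that fell with limma stand against 9.16% of all probe sets lower and 6.89% higher. Among the 22518 brighter probe sets 4174 fell and 2318 rose, and 4 of the 13 members there fell. In 6 of the 15 both WT arrays of day 15 lay below both of day 8, against 25.5% of all, and in 0 above, against 25.5% of all. In KO cells 13 of 15 changes were positive, with a median of 0.21, against -0.0054 over all, and none passed, against 0.0178% of all higher and 0.00222% lower. At an unadjusted p under 0.05 limma counted 0 of the 15 in KO cells, against 4847 of all 45037. The 2-group test counted 5, all higher, against 4697 of all. Both KO arrays of day 15 lay above both of day 8 in 10 of the 15 and below in 1, against 21.9% and 24.8% of all.

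*Trp53inp1* 1416926_at fell in WT cells to 2651 and 3283 at day 15, against 4107 and 5309 at day 8 (log2 change -0.66 ± 0.13, SE, limma adjusted p = 0.00516). In KO cells it gave 6375 and 6519 at day 15, against 5996 and 5970 at day 8. *Ccng1* fell in WT cells on 2 of its 3 probe sets. Probe set 1450016_at gave 634 and 1231 at day 15, against 1645 and 1886 at day 8 (log2 change -0.996 ± 0.231, SE, limma adjusted p = 0.0156). Probe set 1450017_at gave 257 and 364 at day 15, against 438 and 755 at day 8 (log2 change -0.91 ± 0.23, SE, limma adjusted p = 0.0209). On both the WT arrays of the 2 days did not overlap.

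*Mdm2* 1427718_a_at fell in WT cells to 188 and 255 at day 15, against 311 and 557 at day 8 (log2 change -0.93 ± 0.26, SE, limma adjusted p = 0.0376). The brighter 1423605_a_at gave 729 and 1097 at day 15, against 1085 and 2026 at day 8, so that the higher array of day 15 lay just above the lower of day 8 and the days overlapped (log2 change -0.73 ± 0.26, SE, limma adjusted p = 0.0897). *Cdkn1a* 1424638_at showed no such fall, with 3144 and 3979 in WT cells at day 15, against 2674 and 4924 at day 8. In KO cells it gave 4549 and 5139 at day 15, against 3549 and 3930 at day 8, which did not overlap and did not pass (log2 change 0.37 ± 0.23, SE, limma adjusted p = 0.611). The 4 calls in WT cells rest on single arrays: only *Trp53inp1* 1416926_at passed without the second WT array of day 8, while 8 probe sets passed without the first, 3 without the first WT array of day 15 and 7 without the second. With a fit on the arrays compared alone 0 of the 4 passed.

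**Figure D3:**
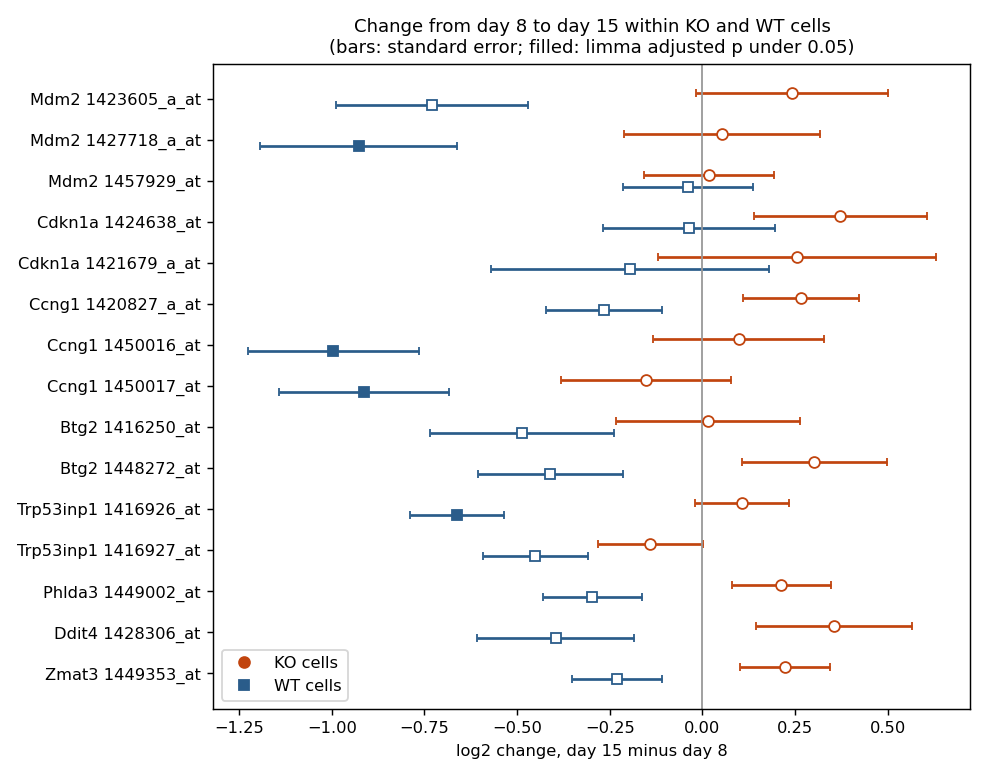
Log2 change from day 8 to day 15, as day 15 minus day 8 (x axis), of the 15 probe sets (rows) in KO cells (circles) and WT cells (squares), with bars for 1 standard error and filled points for a limma adjusted p under 0.05. All 15 WT points lie left of 0, 4 of them filled, and 13 KO points lie right of 0, none filled.

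The difference between KO and WT cells in the change from day 8 to day 15, tested as an interaction, was positive in 15 of 15 probe sets, with a median of 0.53, against 0.0036 over all. None passed, against 0.138% of all higher and 0.284% lower. At an unadjusted p under 0.05, 10 were counted, all positive, against 5425 of all 45037. The fall in WT cells is therefore not shown to differ from the change in KO cells for any single probe set. The comparison of KO with WT cells at day 15 and the changes over time share their day 15 arrays. The KO-WT difference at day 15 minus that at day 0 was positive in 12 of the 15, with a median of 0.42, against 0.0034 over all. It passed as larger at day 15 in 2 of the 15, against 1.89% of all probe sets higher and 2.49% lower. These were *Ddit4*, by 1.57 ± 0.30 (SE, limma adjusted p = 0.0195), and *Trp53inp1* 1416926_at, by 0.78 ± 0.18 (SE, limma adjusted p = 0.0353). For *Cdkn1a* 1424638_at the same difference was -0.39 ± 0.33 (SE, limma adjusted p = 0.58).

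Across the 8 later arrays the brightest probe sets of the 8 genes gave 28 pairs, whose Pearson r of log2 intensity lay between 0.28 and 0.96 with a median of 0.78. This is a description of arrays that share their groups. The 5 genes most like *Cdkn1a* 1424638_at over these 8 arrays, among 11566 genes with a brightest probe set above the median, were *Pqlc3* and *Parp3* (r = 0.97 each), then *Prss23*, *Dop1a* and *Ypel5* (r = 0.96 each). None of these 5 is in the lists of p53 genes described here.

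Of 34 further p53 target genes, 32 were measured, each by its brightest probe set. This list and those below were chosen with earlier results of these data known, so that their counts are no independent support. At day 15, 15 of the 32 were higher in KO cells and 0 lower, against 6.45% of all probe sets each way, with a median difference of 0.51, against 0.04 over all. At day 0 none of the 32 passed, against 0.0222% of all probe sets higher and 0.0266% lower. None passed at day 8 either, against 0.513% and 0.615% of all. Positive differences were counted in 24 of 32 at day 0 (median 0.20, against 0.04 over all). At day 8 they were counted in 17 of 32 (median 0.04, against 0.03 over all). In WT cells 9 of the 32 fell and 2 rose between days 8 and 15, against 9.16% and 6.89% of all probe sets. In KO cells none passed, against 0.0178% of all higher and 0.00222% lower. Of the 22518 brighter probe sets 4174 fell and 2318 rose in WT cells. The day 15 count was 6 higher and 1 lower without the first WT array, 5 higher and 0 lower without the first KO array and 9 higher and 0 lower without the second.

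The widest difference among them was that of *Sfn*, which encodes 14-3-3 sigma, a protein of arrest before mitosis and of epithelia. It gave 396 and 301 in KO cells at day 15, against 77.3 and 105 in WT cells (log2 difference 1.94 ± 0.19, SE, limma adjusted p = 0.000197). *Perp*, a membrane protein of apoptosis and of desmosomes, gave 1566 and 1639 in KO cells, against 536 and 733 in WT cells (1.35 ± 0.29, SE, limma adjusted p = 0.013). *Gtse1*, a microtubule protein that moves p53 out of the nucleus, gave 556 and 499 in KO cells, against 217 and 265 in WT cells (1.14 ± 0.12, SE, limma adjusted p = 0.00037). None of these overlapped.

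*Ak1*, a cytosolic adenylate kinase, gave 1575 and 1577 in KO cells at day 15, against 717 and 801 in WT cells (1.06 ± 0.16, SE, limma adjusted p = 0.00196). *Bbc3*, which encodes the proapoptotic BH3 protein Puma, gave 380 and 291 in KO cells, against 140 and 201 in WT cells (0.99 ± 0.21, SE, limma adjusted p = 0.0121). Both are above their WT arrays, and at day 0 *Ak1* gave 965 in F35 and 1287 in A49, against 559 in N12 and 680 in N33. Among those that did not pass at day 15 were *Gadd45a* (log2 difference 0.10), a gene of arrest and DNA repair, the death receptor gene *Fas* (-0.02), *Pmaip1* (-0.51), which encodes the proapoptotic protein Noxa, and *Sesn1* (-0.54), a restraint on mTORC1. *Fas* was dim, at 31.8 and 33.1 in KO cells and 36.0 and 30.0 in WT cells, all under the median of their arrays.

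**Figure D4:**
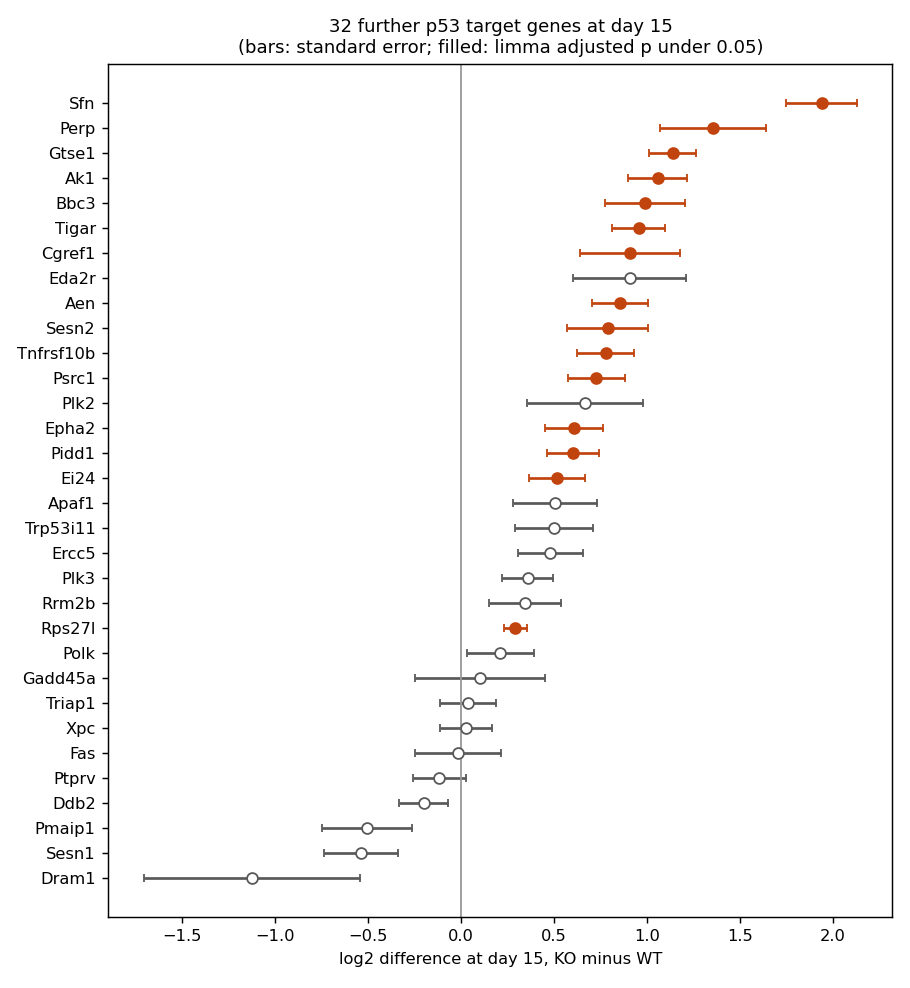
Log2 difference at day 15, KO minus WT (x axis), of 32 further p53 target genes (rows, ordered by the difference), each by its brightest probe set, with bars for 1 standard error and filled points for a limma adjusted p under 0.05. The 15 filled points all lie right of 0, from *Sfn* at 1.94 downwards.

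Of 28 measured regulators of p53, 6 were higher and 3 lower in KO cells at day 15 (median 0.23), against 6.45% of all probe sets each way. In the fit on the 22518 brighter probe sets, 2681 were higher and 2300 lower, with 7 higher and 3 lower of 27 regulators. At day 8, 1 was higher and 1 lower, against 0.513% and 0.615% of all. None passed at day 0, against 0.0222% of all higher and 0.0266% lower. *Sirt1*, the deacetylase that acts on p53, gave 353 and 361 in KO cells at day 15, against 138 and 190 in WT cells (log2 difference 1.14 ± 0.16, SE, limma adjusted p = 0.00116). *Ppp1r13l*, which encodes the p53 inhibitor iASPP, gave 642 and 611 in KO cells, against 381 and 396 in WT cells (0.69 ± 0.14, SE, limma adjusted p = 0.0102). *Trp73*, a p53 relative, was dim but higher, at 85.0 and 87.2 in KO cells and 46.5 and 49.2 in WT cells (0.85 ± 0.14, SE, limma adjusted p = 0.00268), and it was also higher at day 8. The lower genes included *Hipk2* and *Ppp1r13b*. *Hipk2*, the kinase that phosphorylates p53, gave 341 and 334 in KO cells, against 782 and 689 in WT cells (-1.12 ± 0.14, SE, limma adjusted p = 0.000682). *Ppp1r13b*, which encodes the p53 cofactor ASPP1, gave 299 and 384 in KO cells, against 851 and 586 in WT cells (-1.06 ± 0.30, SE, limma adjusted p = 0.0423).

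Of 13 measured relatives of the chosen genes, 3 were higher and 1 lower in KO cells at day 15, against 6.45% of all probe sets each way. In the fit on brighter probe sets, 3 of the 13 were higher and 2 lower. *Cdkn1c*, the p57 relative of *Cdkn1a*, was lower, at 981 and 1429 in KO cells, against 3459 and 2977 in WT cells (log2 difference -1.44 ± 0.24, SE, limma adjusted p = 0.00363). *Ddit4l*, the closest relative of *Ddit4*, was higher, at 221 and 306 in KO cells, against 98.0 and 148 in WT cells (1.11 ± 0.21, SE, limma adjusted p = 0.00566). *Bak1* (0.62 ± 0.16, SE, limma adjusted p = 0.0273) and *Bok* (0.59 ± 0.17, SE, limma adjusted p = 0.0424), proapoptotic members of the Bcl-2 family, were also higher.

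Of genes that p53 represses through p21 and the DREAM complex, most of them of mitosis, 10 were measured. In KO cells 1 was higher and 0 lower at day 15, against 6.45% of all probe sets each way. None passed at day 0, against 0.0222% of all higher and 0.0266% lower, or at day 8, against 0.513% and 0.615%. Of the 22518 brighter probe sets 2681 were higher and 2300 lower at day 15. The 1 higher gene of the list was *Cdc20*, an activator of the anaphase-promoting complex, at 4650 and 4605 in KO cells, against 2650 and 3507 in WT cells (log2 difference 0.60 ± 0.15, SE, limma adjusted p = 0.0233). At day 0 the list had a median of -0.10, against 0.04 over all, with 1 of 10 positive. In WT cells 4 of the 10 fell between days 8 and 15, against 9.16% of all probe sets, and in KO cells none passed, with 0 of 10 changes positive. Of the 22518 brighter probe sets 4174 fell in WT cells.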

How the data were processed

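RNA of 12 samples was hybridised to Affymetrix mouse arrays by CapitalBio. The authors deposited linear, scaled intensities, 1 value per probe set and array, made with MAS5 by the submitters' notes. Its version is not given in the sources used here. By their values, day 0 arrays were scaled apart. Arrays have no read depth, so their number limits the precision.

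Of 45101 probe sets, 64 controls were left out. Of the others 34945 carry 1 gene symbol, 932 several and 9160 none. Values were raised to at least 1, put on the log2 scale and fitted in limma 3.58.1 (R 4.3.3, statmod 1.5.0). The model had a mean for each group, and variances were moderated robustly with a trend in intensity. P-values are two-sided, with Benjamini-Hochberg adjustment across 45037 probe sets and a threshold of 0.05. The fit was tested on simulated data. Other steps used Python 3.11.15 with numpy 2.4.6, pandas 2.3.3 and matplotlib 3.10.9.

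All probe sets of the members were named, and from the other p53 lists up to 5 genes with the largest differences among those that passed at day 8 or day 15. Genes named without passing were chosen after their values were seen. The members and lists were chosen with earlier results of these data known. The fit was repeated with an offset of 32, with quantile or median scaling, on brighter probe sets and without the trend and robust moderation. It was also repeated on the arrays compared, with a replicate block and without each array. An unpaired 2-group t-test was run as well. Promoter windows are of RefSeq, build GRCm38.p6. The detection calls that the authors describe were not used here.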

Additional observations from a re-analysis of the deposited data

Results flagged for a closer look

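Several p53 target genes had a KO-WT difference that itself differed between days by the interaction test. For *Trp53inp1* 1416926_at the difference at day 15 exceeded that at day 0 by 0.78 ± 0.18 on the log2 scale (SE, limma adjusted p = 0.0353), and both KO arrays were above both WT arrays on each day. For *Ddit4* it did so by 1.57 ± 0.30 (SE, limma adjusted p = 0.0195), with a day 0 difference of -0.27 and a day 15 difference of 1.30.

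Genes of the lists are named here only if already named for a KO-WT difference at day 8 or day 15. The same arrays enter the interaction test, so that these results are no independent support. Of the 32 further targets 3 passed as higher against day 8 and 3 against day 0, where 0.138% and 1.89% of all probe sets did. The difference of *Sfn* at day 15 exceeded that at day 8 by 1.61 ± 0.27 (SE, limma adjusted p = 0.0323) and that at day 0 by 1.95 ± 0.27 (SE, limma adjusted p = 0.00484). Its intensities averaged 517 ± 50.1 in KO and 524 ± 103 in WT cells at day 0, 328 ± 2.07 in KO and 262 ± 18.1 in WT cells at day 8, and 348 ± 66.9 in KO and 91.2 ± 19.7 in WT cells at day 15 (SD, n = 2 each). That of *Gtse1* exceeded its day 8 difference by 0.98 ± 0.18 (SE, limma adjusted p = 0.0453) and its day 0 difference by 0.83 ± 0.18 (SE, limma adjusted p = 0.0265).

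*Hipk2*, the p53 kinase, went the other way, with a day 15 difference below that at day 0 by a log2 value of -1.04 ± 0.19 (SE, limma adjusted p = 0.0161). It was the 1 of 28 regulators that passed in this comparison, against 2.49% of all probe sets lower, and was chosen in the same way. Its intensities averaged 146 ± 14.7 in KO and 155 ± 22.1 in WT cells at day 0, 333 ± 28.9 in KO and 665 ± 15.7 in WT cells at day 8, and 337 ± 4.60 in KO and 736 ± 66.2 in WT cells at day 15 (SD, n = 2 each).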

How the results depend on the processing

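Of the 15 probe sets, 8 passed at day 15 in KO against WT cells. In 12 settings, the 2-group test aside, 2 were called each time, *Trp53inp1* 1416926_at and *Ddit4*. That test called 0 members and 0 of all probe sets at day 15. At an unadjusted p under 0.05 it counted 4 members, all higher, against 6541 of all 45037. Leaving out 1 array gave 0 calls each time at day 0, 0 to 1 at day 8, 3 to 9 at day 15, 3 to 12 over the 3 days (9 with all arrays), 0 for KO cells over time, 1 to 8 for WT cells over time (4 with all arrays), 0 to 3 for the interaction from day 8 to day 15 and 0 to 4 for that from day 0 to day 15 (2 with all arrays). With only the arrays compared, 3 passed in KO cells and 0 in WT cells over time. With only days 8 and 15 in the fit, chosen after seeing the data, 2 passed in WT cells over time, and the 2-group test called 0 there. Quantile normalization, and no trend or robust moderation, left 1 each for the interaction from day 0 to day 15. The day 0 difference of *Ddit4* ranged from -0.60 to 0.059 with 1 array left out. Among values of single genes and counts of the lists under the alternatives, 637 kept their direction and side of the threshold, 138 lost a call, 14 gained one, 8 list counts moved by over 1.5 times and 1 value changed sign. Over all 15 probe sets, signs changed in 42 of 1694 alternative values, in 0 with a call.

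The labels do not say that equal replicate numbers are paired. Deviations from the group means correlated between groups at -0.07 to 0.13. This was taken over all probe sets, dim ones included, and cannot exclude a pairing. With the replicate block 10 passed at day 15 (8 without it) and 11 over the 3 days (9 without it), and the other counts of the 15 were the same.

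Counts over all probe sets also depended on the setting. At day 0, 10 were higher and 12 lower. This became 142 higher and 151 lower with an offset of 32, 19 higher and 96 lower with quantile normalization, 10 higher and 24 lower with centring, 0 among brighter probe sets, 13 in all with no trend or robust moderation, 3 with the block, 1 with the arrays compared, 2 with the 2-group test and 673 without line F35. At day 8 the 508 calls became 0 with the arrays compared, 294 with only days 8 and 15, 2625 without the first WT array, and 10 and 5 without the first and the second KO array. At day 15 the 5807 calls became 3781 with only days 8 and 15, and 1720 without the first KO array, the fewest with 1 array left out. Over time the 9 calls in KO cells became 1273, and the 7227 in WT cells became 367, with the arrays compared.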
